A study of Saccharomyces cerevisiae with 14 samples.

Results

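The nuclear genes of the mitochondrial respiratory chain and the ATP synthase were taken by name from a table of RNA levels in budding yeast: 40 genes were listed, and all 40 had a row among the 6598 genes of the table and a value in every condition. They fall into 7 groups, which are the 3 NADH dehydrogenases of the inner membrane, 4 subunits of complex II, 9 of complex III, 2 forms of cytochrome c, 9 subunits of complex IV, 6 genes of the F1 head of the ATP synthase and its inhibitor, and 7 of its stalk and membrane part. The strains were Saccharomyces cerevisiae W303, wild type or carrying a deletion of RPD3, which codes for a histone deacetylase. Each genotype was harvested in 3 states: log cells growing on glucose at an OD600 of 0.4 to 0.6, DS cells taken 2 h after the glucose had run out (the diauxic shift), and Q cells, the dense quiescent fraction of 7-day cultures isolated on a Percoll gradient. Strand-specific libraries were made from 2 isolates of every condition, but the deposited table has a single column for each; without replicate values no error can be given and no difference was tested. Values are FPKM (fragments scaled to transcript length and library size), which the authors rescaled with spike-in RNA to the RNA content of a cell.

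Budding yeast has no proton-pumping complex I. Single-protein dehydrogenases pass electrons from NADH to ubiquinone in its place, complex II does so from succinate, and complexes III and IV pass them on through cytochrome c to oxygen while pumping protons that drive the ATP synthase. On glucose yeast mainly ferments and keeps these genes low through glucose repression; once glucose is gone it respires the ethanol it has made, and the Hap2/3/4/5 activator, which binds CCAAT, is known for raising many of them.

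A change below is log2(FPKM + 1) in one condition minus that in another, and a gene is called higher or lower where that difference is at least 1 on the log2 scale, which is 2-fold. The comparisons share columns, so they are not independent of each other. The scale per cell shifts most genes at once: the median gene of the table was at 38.0, 20.1 and 1.37 FPKM in wild-type log, DS and Q cells and at 50.2, 33.9 and 19.0 FPKM in the mutant. Each count is therefore read against the share of all genes called in the same direction, and changes were also computed after dividing each column by its median gene (centred columns). RPD3 was at 70.8, 37.7 and 2.35 FPKM in wild-type log, DS and Q cells, had no value in mutant log cells and was at 0.941 and 0.0279 FPKM in mutant DS and Q cells. The 4 growth markers checked lay between 405 and 6946 FPKM in wild-type log cells, the 4 markers of glucose exhaustion between 2880 and 4142 FPKM in wild-type DS cells and the 5 markers of stationary phase between 361 and 1487 FPKM in wild-type Q cells. The last 5 lay between 798 and 15297 FPKM in wild-type DS cells. HSP12, HSP26, SIP18 and SPG4 were higher there than in wild-type Q cells, and SPG1 was lower.

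The respiratory genes peaked in DS cells in both genotypes. Their FPKM summed to 9654 in wild-type log, 31859.7 in DS and 845 in Q cells, which was 0.709%, 5.52% and 1.55% of the FPKM of all genes in the same column. In the mutant the sums were 11266, 38764 and 4041 FPKM, or 0.786%, 5.14% and 1.32%. These shares do not depend on the scale per cell, and in both genotypes they were highest in DS cells and higher in Q than in log cells. Without ribosomal protein genes in the sum the log and Q shares lay closer together. They were then 1.15% and 1.61% in the wild type and 1.22% and 1.43% in the mutant. In RNA from many cells at once, fewer cells holding a transcript and less of it in each cell cannot be told apart. The median of the 40 genes stood at the 88.8th percentile of all genes in wild-type log, at the 98.1st in DS and at the 89.6th in Q cells. In wild-type DS cells 38 of the 40 were among the top 10% of genes, and the exceptions were CYC7 and COX5B.

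**Figure D1:**
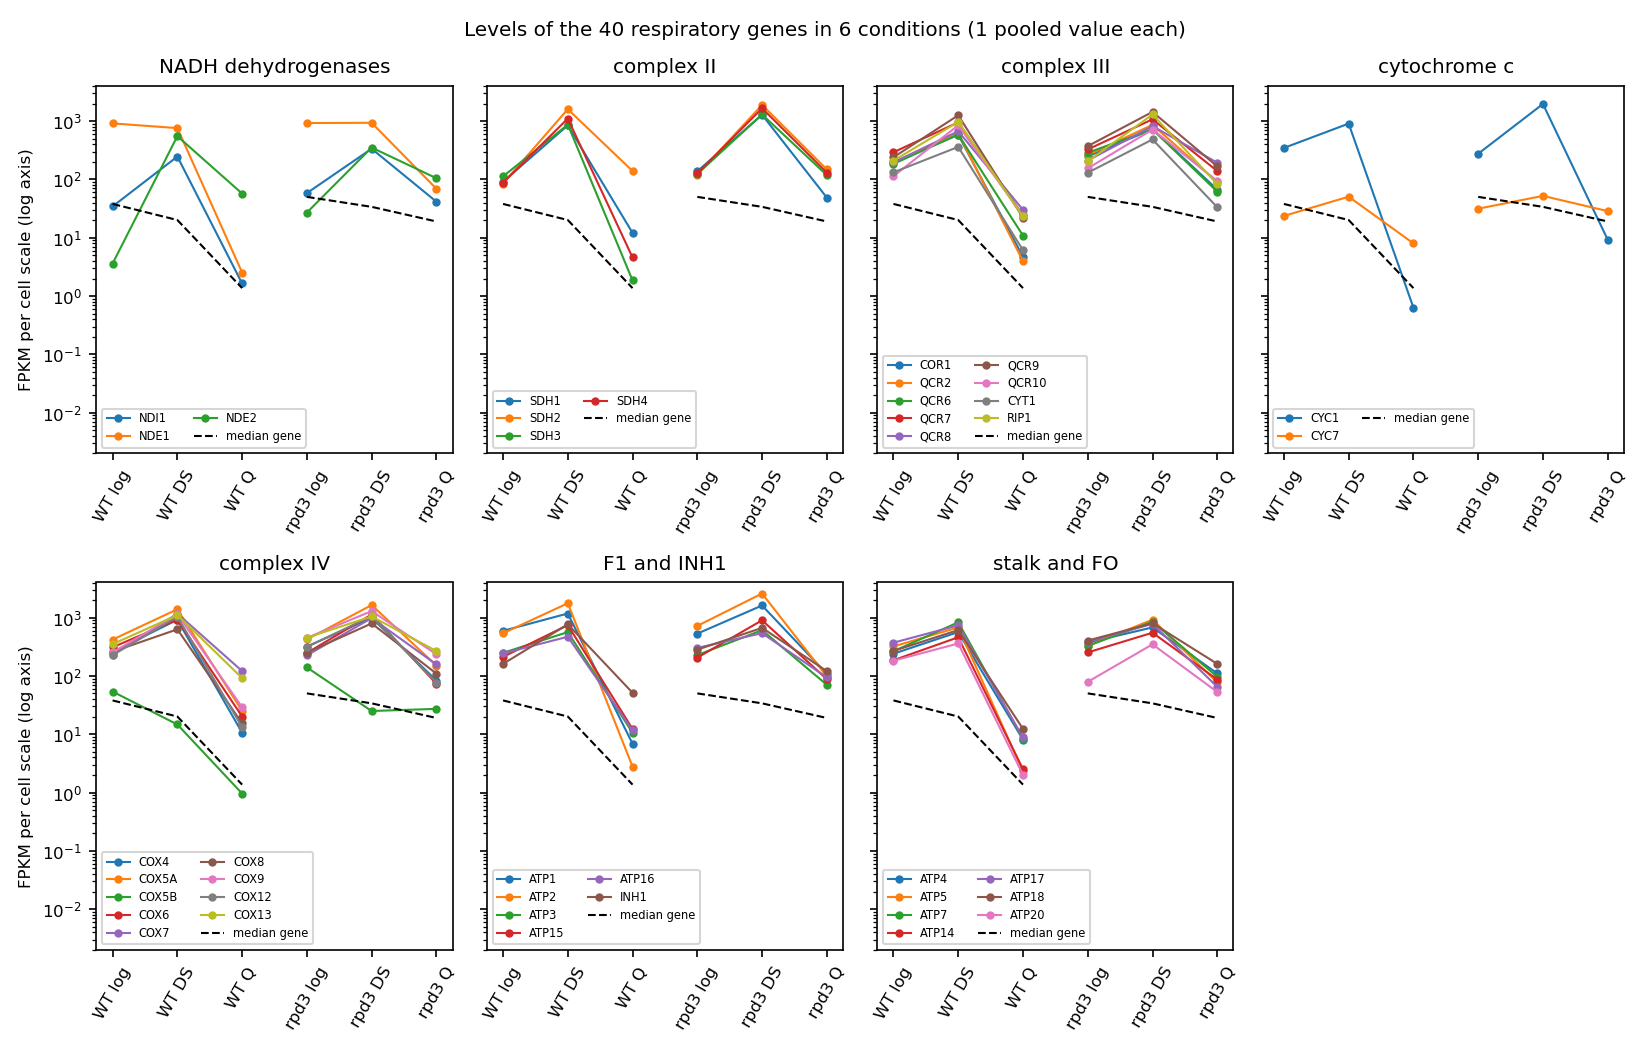
Level of each of the 40 genes (y axis, FPKM on the authors' scale per cell, log axis) in wild-type (WT) and rpd3 mutant log, DS and Q cells (x axis), 1 panel per group; each point is 1 pooled value and the dashed line is the median gene of the table. Most lines peak in DS cells; NDE1 in the wild type and COX5B in both genotypes do not, and the wild-type Q values of complex II spread from 1.85 to 140 FPKM.

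Between log and DS cells the genes rose nearly as a block. In the wild type 34 of the 40 were called higher, against 9.91% of all genes, and 1 was lower, against 44.2% of all genes. The median change of the 40 was 1.66, while that of all genes was -0.85, and 39 of the 40 lay above the latter. In the mutant the counts were again 34 higher and 1 lower, against 7.54% and 28.6% of all genes, with medians of 1.72 for the 40 and -0.52 for all genes. COX5B was the gene that was lower in both genotypes. With centred columns 38 were higher and none lower in the wild type, against 19.1% and 21.3% of all genes, and 38 higher and 1 lower in the mutant, against 12.9% and 12.6%.

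From DS to Q cells the genes fell further than most others. All 40 were lower in wild-type Q than DS cells, a share near that of all genes (94.6% lower and 0.171% higher), but their median change was -5.75 against -2.90 for all genes, and 39 lay below the latter, with CYC7 as the exception. In the mutant 38 were lower and none was higher, against 40.6% and 2.68% of all genes, with medians of -3.19 for the 40 and -0.81 for all genes. With centred columns 32 of the 40 were lower and 1 was higher in the wild type, against 25.1% and 22.6% of all genes, and 37 were lower and none higher in the mutant, against 15.5% and 8.14%.

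From log to Q cells, with 1 FPKM added before the log, the median of these genes moved about as far as that of all genes. Single members parted widely. In the wild type this nearness depended on the FPKM added. With 0.1 added in place of 1 the medians were -4.27 for the 40 and -4.70 for all genes. With 10 added they were -3.36 and -1.98. On the scale per cell 37 of the 40 were lower in wild-type Q than log cells, near the 93.2% of all genes that were lower, with a median of -4.00 against -3.87 for all genes. With centred columns the median turned to 0.46, with 13 genes higher and 8 lower, against 27.7% and 32.4% of all genes, and single changes ran from -4.15 for CYC1 to 8.11 for NDE2. NDE2 was the 1 gene called higher on the scale per cell, against 1.84% of all genes. In the mutant 28 were lower in Q than log cells and 1, again NDE2, was higher, against 64.9% and 4.36% of all genes; the median was -1.48 against -1.39 for all genes, and with centred columns it was -0.091, with 6 higher and 4 lower, against 15% and 18.9%.

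**Figure D2:**
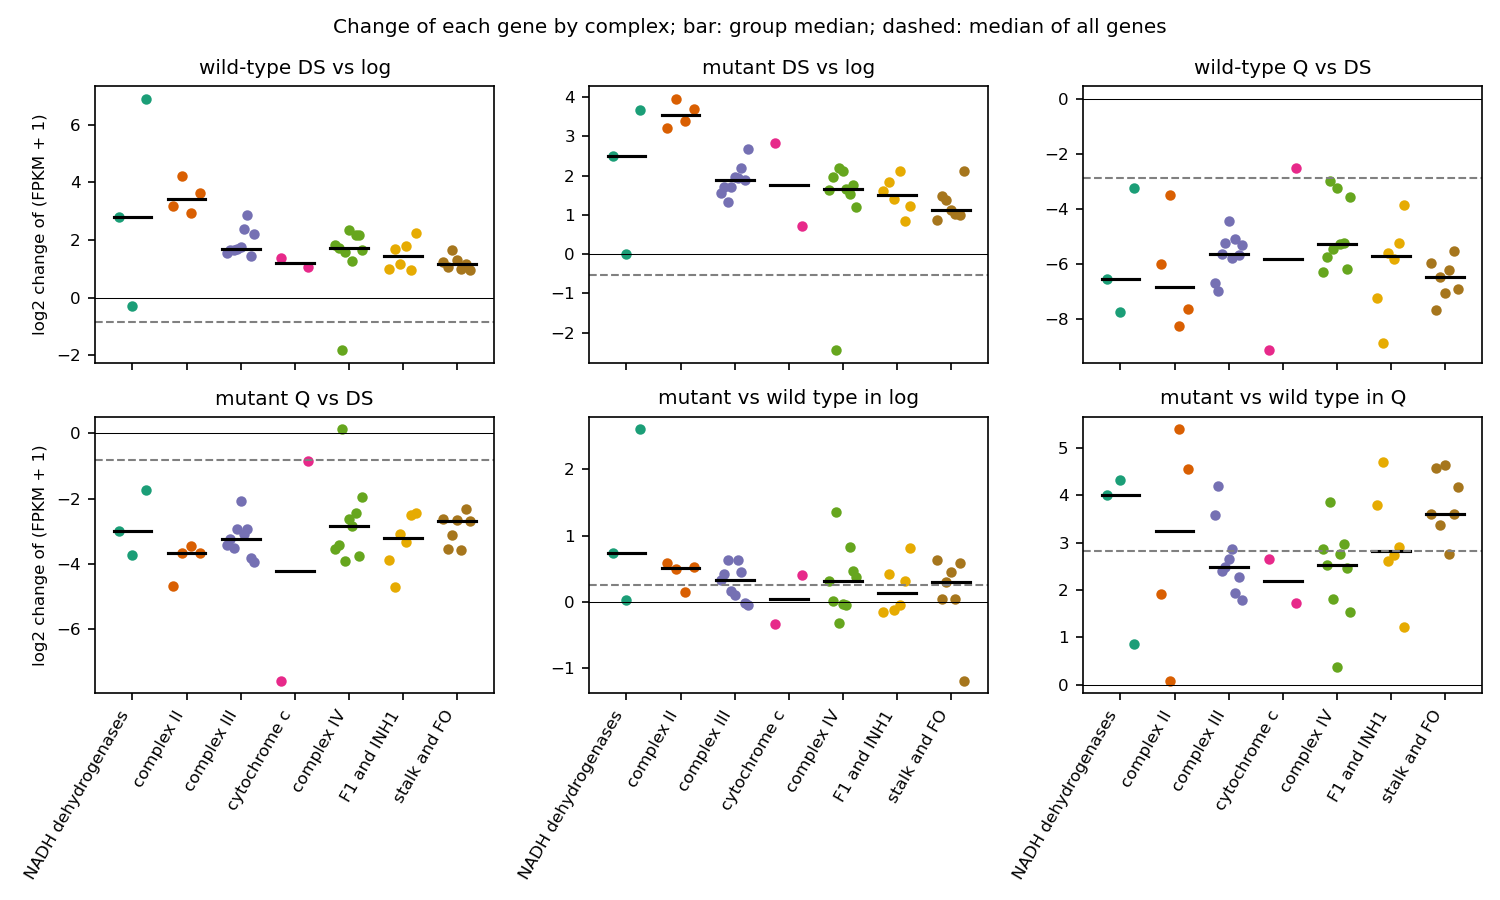
Change of each gene (y axis, difference of log2(FPKM + 1)) in 6 comparisons, by group (x axis); points are single genes, black bars the group medians and dashed lines the median of all genes tested. Complex II has the highest group median from log to DS cells in both genotypes (3.42 in the wild type), the wild-type changes from DS to Q cells lie below the dashed line except for CYC7, and the mutant's higher Q levels scatter about the dashed line; with centred columns the median of the last panel turns to -0.87.

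The NADH dehydrogenases changed places. NDE1 and NDE2 code for the enzymes that oxidize cytosolic NADH at the outer face of the inner membrane, and NDI1 for the one that oxidizes matrix NADH. NDE1 was at 914, 758 and 2.54 FPKM in wild-type log, DS and Q cells and at 927, 936 and 69.2 FPKM in the mutant. It was the highest of the 40 genes in log cells of both genotypes, was near that level in DS cells and was low in Q cells, above all in wild-type ones. NDE2 was at 3.61, 552 and 57.2 FPKM in the wild type and at 27.0, 352 and 105 FPKM in the mutant. It was the lowest of the 40 in log cells and came within 1.37-fold of NDE1 in wild-type DS cells. NDE2 was 22.6 times as high as NDE1 in wild-type Q cells and 1.52 times in mutant Q cells, so that its part in the sum of both went from 0.393% in wild-type log cells to 95.8% in Q cells and from 2.83% to 60.2% in the mutant. NDE2 had the largest rise of the 40 from log to DS cells in the wild type (6.91). NDI1 was at 34.5, 247 and 1.64 FPKM in the wild type and at 58.2, 336 and 41.5 FPKM in the mutant, near the median gene in log cells and well above it in DS cells.

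The stretches before the start codons of this pair are shown because its members differ most in log cells. They hold different motifs among those searched. In the 500 bases before each start codon these motifs were searched on both strands: CCAAT of the Hap2/3/4/5 complex, AGGGG of the stress response element, ATTGTT as core of the Rox1 site, GGCGGC as core of the Ume6 site, and the site of Hap1. The nearest 250 bases are printed 5′ to 3′ from the RefSeq reference R64, which is a genome of strain S288C and may differ from W303; capitals mark CCAAT as well as ATTGTT and AGGGG, on either strand. The NDE1 stretch lies at chrXIII:556476-556725 on the minus strand and that of NDE2 at chrIV:302961-303210 on the plus strand. The NDE1 stretch holds CCAAT at 2 places and ATTGTT at 1, and the NDE2 stretch holds AGGGG, read as its reverse complement, at 2.
NDE1: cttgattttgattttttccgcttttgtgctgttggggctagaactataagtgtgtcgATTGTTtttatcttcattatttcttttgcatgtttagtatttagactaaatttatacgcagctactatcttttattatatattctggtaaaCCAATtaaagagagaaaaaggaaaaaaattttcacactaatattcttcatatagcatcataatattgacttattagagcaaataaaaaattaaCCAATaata
NDE2: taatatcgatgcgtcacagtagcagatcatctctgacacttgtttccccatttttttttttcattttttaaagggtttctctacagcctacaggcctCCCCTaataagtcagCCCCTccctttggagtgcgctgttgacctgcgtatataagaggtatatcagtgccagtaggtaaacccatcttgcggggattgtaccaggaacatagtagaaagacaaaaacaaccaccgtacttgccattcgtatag

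Complex II, the succinate dehydrogenase that also serves the citric acid cycle, rose most. All 4 of its genes were higher in DS than log cells of both genotypes, with a median change of 3.42 in the wild type and 3.54 in the mutant, and their summed FPKM was 11.7 times the log sum in the wild type and 12.0 times in the mutant. For complex III the same ratio was 3.89 in the wild type. In wild-type log cells the 4 genes lay within 1.33-fold of each other. In wild-type Q cells they lay 75.3-fold apart. SDH2, the iron-sulfur subunit, was at 85.0, 1601 and 139.6 FPKM in wild-type log, DS and Q cells and at 121, 1892 and 148 FPKM in the mutant. It was the highest of the 40 genes in wild-type Q cells and was nearly as high there as in the mutant. SDH1, the flavoprotein subunit, was at 91.3, 847 and 12.1 FPKM in the wild type and at 138, 1285 and 48.8 FPKM in the mutant. SDH3, a membrane anchor, was at 113, 871 and 1.85 FPKM in the wild type and at 124, 1299.7 and 118 FPKM in the mutant. The other anchor, SDH4, was at 87.6, 1105 and 4.59 FPKM in the wild type and at 127, 1660.0 and 131 FPKM in the mutant. In wild-type Q cells SDH3 was near the median gene and SDH4 a few times above it, and both were a few times above it in wild-type log cells and far above it in DS cells. In mutant Q cells the 4 genes lay 3.04-fold apart, with SDH1 lowest. SDH3 was the member with the largest difference between mutant and wild-type Q cells (5.39 on the log2 scale), and SDH2 had the smallest (0.09).

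The paralogs of 3 complex II subunits each stood above their own subunit in wild-type Q cells. These pairs were chosen after their values were seen. SHH3, a homolog of SDH3, was at 19.8, 218 and 65.0 FPKM in wild-type log, DS and Q cells and at 49.3, 45.2 and 227 FPKM in the mutant. SHH4, a homolog of SDH4, was at 13.1, 317 and 113 FPKM in the wild type and at 19.7, 79.3 and 198 FPKM in the mutant. YJL045W, a homolog of SDH1, was at 2.15, 251 and 27.5 FPKM in the wild type and at 3.21, 34.6 and 25.4 FPKM in the mutant. In log and DS cells of both genotypes each paralog was below its subunit. In wild-type Q cells SHH3 was 35.1 times as high as SDH3, SHH4 24.6 times as high as SDH4 and YJL045W 2.27 times as high as SDH1. In mutant Q cells SHH3 and SHH4 were still above their subunits, by 1.91-fold and 1.52-fold, and YJL045W was below SDH1. In DS cells all 3 paralogs were lower in the mutant than in the wild type, with changes of -2.25 for SHH3, -1.99 for SHH4 and -2.82 for YJL045W, while the 4 subunits were 0.24 to 0.60 higher; with centred columns the subunits' median turned to -0.16. The coding sequences of the pairs were 56.8% (SDH3 and SHH3), 60.4% (SDH4 and SHH4) and 75.9% (SDH1 and YJL045W) identical in the reference, with no identical run longer than 23 bases.

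**Figure D3:**
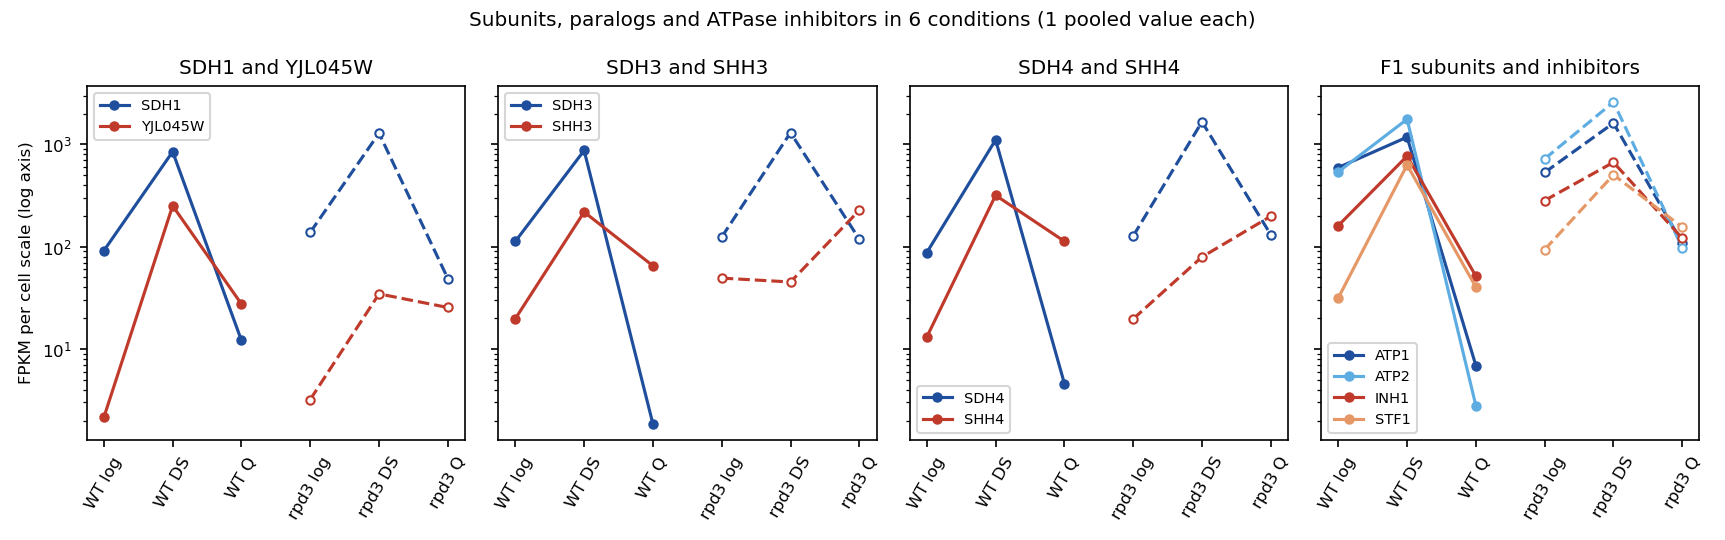
Levels (y axis, FPKM on the authors' scale per cell, log axis) of complex II subunits with their paralogs and of F1 subunits with the ATPase inhibitors INH1 and STF1, in wild-type (WT, filled points, solid lines) and rpd3 mutant cells (open points, dashed lines); each point is 1 pooled value. Each paralog lies below its own subunit, and INH1 and STF1 below ATP1 and ATP2, in log and DS cells of both genotypes, and above them in wild-type Q cells, where SHH3 is at 65.0 and SDH3 at 1.85 FPKM.

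Complex III passes electrons from ubiquinol to cytochrome c. Its subunits lay closer together than those of complex II in wild-type Q cells, but further apart in the other conditions. All 9 genes were higher in DS than log cells of both genotypes, with medians of 1.70 in the wild type and 1.89 in the mutant. The levels lay 2.57-fold apart in wild-type log cells, 3.48-fold in DS cells and 7.60-fold in Q cells. The Q levels ran from 3.96 FPKM for QCR2 to 30.1 FPKM for QCR8. COR1 and QCR2, the core proteins, fell most from DS to Q cells in the wild type, with changes of -6.68 and -6.97 on the log2 scale. COR1 was at 196, 584 and 4.70 FPKM in wild-type log, DS and Q cells and at 248, 729.6 and 66.9 FPKM in the mutant. QCR2 was at 196, 619.5 and 3.96 FPKM in the wild type and at 261, 864 and 90.01 FPKM in the mutant. Both were thus some way below the small subunits in wild-type Q cells. RIP1, the Rieske iron-sulfur protein, was at 210.1, 969 and 23.2 FPKM in the wild type and at 204, 1299 and 83.2 FPKM in the mutant. CYT1, cytochrome c1, was at 132, 361 and 6.13 FPKM in the wild type and at 130.4, 485 and 33.4 FPKM in the mutant, the lowest of the group in DS cells of both genotypes and in mutant log and Q cells. The small subunit QCR10 was at 114, 848 and 23.6 FPKM in the wild type and at 155, 717 and 93.8 FPKM in the mutant, and had the largest rise of the group from log to DS cells in the wild type (2.89). QCR9, another small subunit, was at 239.7, 1259 and 22.1 FPKM in the wild type and at 372, 1439 and 167 FPKM in the mutant, the highest of the group in DS cells of both. QCR6, QCR7 and QCR8 lay between 185 and 293 FPKM in wild-type log cells, between 588 and 952 FPKM in DS cells and between 10.9 and 30.1 FPKM in Q cells.

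The main form of cytochrome c, the electron carrier between complexes III and IV, was nearly lost in wild-type Q cells. CYC1, which codes for this form, was at 347, 906 and 0.633 FPKM in wild-type log, DS and Q cells and at 276, 1967 and 9.27 FPKM in the mutant. It went from the 98.4th percentile of all genes in wild-type DS cells to the 30.9th in Q cells and was the lowest of the 40 genes in Q cells of both genotypes. Its change from DS to Q cells was the largest decrease of the 40 in both, -9.12 in the wild type and -7.58 in the mutant. CYC7, the minor form known for its use at low oxygen, was at 23.7, 50.6 and 8.01 FPKM in the wild type and at 31.5, 52.2 and 28.6 FPKM in the mutant. CYC7 was the lesser form in log and DS cells and the greater one in Q cells. CYC1 was 14.7 times as high as CYC7 in wild-type log cells and 17.9 times in DS cells. In Q cells CYC7 was 12.6 times as high as CYC1 in the wild type and 3.09 times in the mutant, so that it made up 92.7% and 75.5% of the sum of both. With a pseudocount of 1 added to both genes the log2 ratio in wild-type Q cells was -2.46 in place of -3.66. The coding sequences were 77.0% identical with a longest identical run of 35 bases, so a read lying wholly within it could belong to either; the share of such reads was not analysed here. CYC1 was the 1 gene of the 40 that was at least 2-fold higher in mutant than wild-type DS cells (1.12).

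The CYC1 stretch, at chrX:526085-526334 on the plus strand, holds none of the 3 marked motifs, and the CYC7 stretch, at chrV:79978-80227 on the minus strand, holds AGGGG at 1 place. They are shown as the pair whose order reversed in Q cells of both genotypes along with NDE1 and NDE2.
CYC1: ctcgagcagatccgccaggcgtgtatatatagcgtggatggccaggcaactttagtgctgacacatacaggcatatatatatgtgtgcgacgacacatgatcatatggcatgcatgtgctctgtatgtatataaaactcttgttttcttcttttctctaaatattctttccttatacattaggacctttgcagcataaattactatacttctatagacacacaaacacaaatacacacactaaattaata
CYC7: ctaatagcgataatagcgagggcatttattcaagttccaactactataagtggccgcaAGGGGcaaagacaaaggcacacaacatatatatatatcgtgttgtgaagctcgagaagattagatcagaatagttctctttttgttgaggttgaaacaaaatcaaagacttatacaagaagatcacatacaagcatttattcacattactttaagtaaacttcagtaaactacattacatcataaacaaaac

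**Figure D4:**
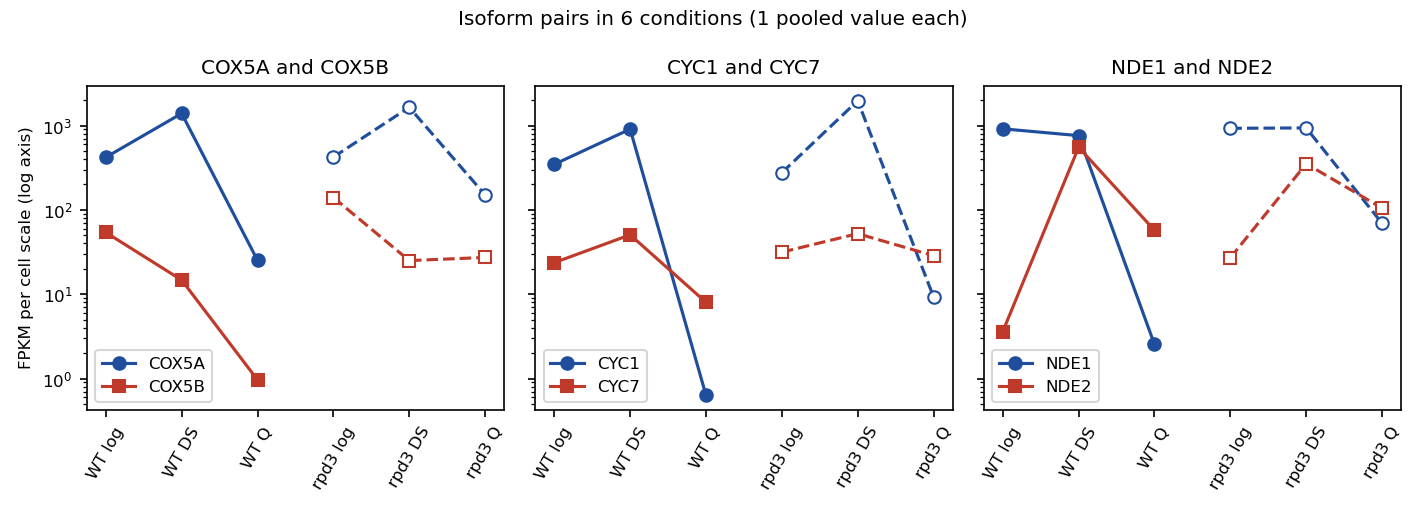
Levels (y axis, FPKM on the authors' scale per cell, log axis) of both members of each isoform pair in wild-type (WT, filled points, solid lines) and rpd3 mutant cells (open points, dashed lines); each point is 1 pooled value. NDE2 and CYC7 cross above NDE1 and CYC1 in Q cells of both genotypes, and COX5B stays below COX5A in all 6 conditions.

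In complex IV, cytochrome c oxidase, 8 of the 9 nuclear genes were higher in DS than log cells of each genotype, with medians of 1.73 in the wild type and 1.66 in the mutant. The ninth was COX5B. COX5A and COX5B code for alternative forms of subunit V, of which the second is known as the form used at low oxygen. COX5A was at 419.9, 1391 and 25.2 FPKM in wild-type log, DS and Q cells and at 422, 1643 and 151 FPKM in the mutant. COX5B was at 54.0, 14.7 and 0.963 FPKM in the wild type and at 140.1, 25.0 and 27.3 FPKM in the mutant. COX5A was the higher of the pair in all 6 conditions, and COX5B was highest in log cells, where the other subunits were not. Their ratio went from 7.78 in log to 94.6 in DS and 26.2 in Q cells of the wild type. In the mutant it was 3.01, 65.6 and 5.53, so that COX5B held 24.9% of the sum of both in mutant log cells against 11.4% in wild-type log cells. With a pseudocount of 1 the log2 ratio in wild-type Q cells was 3.74 in place of 4.71. The pair's coding sequences were 67.5% identical with no identical run longer than 12 bases.

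Both stretches of this pair hold CCAAT and ATTGTT, and AGGGG is in that of COX5B alone, at 2 places. GGCGGC, which is not marked by capitals, is in that of COX5A alone and starts 115 bases before the start codon. The COX5A stretch lies at chrXIV:531475-531724 and that of COX5B at chrIX:154972-155221, both on the plus strand. Across the 3 pairs, AGGGG was found in the 500 bases before NDE2, CYC7 and COX5B and not before NDE1, CYC1 or COX5A, while 34.1% of all 6000 stretches of that length hold it.
COX5A: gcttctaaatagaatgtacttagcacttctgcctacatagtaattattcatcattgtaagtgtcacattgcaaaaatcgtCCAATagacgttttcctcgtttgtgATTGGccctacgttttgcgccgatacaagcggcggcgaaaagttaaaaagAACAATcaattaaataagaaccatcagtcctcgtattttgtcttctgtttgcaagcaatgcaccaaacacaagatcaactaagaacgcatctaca
COX5B: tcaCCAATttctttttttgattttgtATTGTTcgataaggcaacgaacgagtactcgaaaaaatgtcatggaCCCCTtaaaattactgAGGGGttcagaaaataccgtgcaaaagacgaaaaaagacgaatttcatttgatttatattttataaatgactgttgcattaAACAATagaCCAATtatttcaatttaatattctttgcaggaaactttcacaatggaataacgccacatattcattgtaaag

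The other subunits of complex IV parted in wild-type Q cells. COX7 was at 231, 1171 and 121 FPKM in wild-type log, DS and Q cells and at 225, 983 and 157 FPKM in the mutant. COX13 was at 350.2, 1108 and 92.0 FPKM in the wild type and at 453, 1048 and 267 FPKM in the mutant. COX4, the subunit that binds zinc, was at 258, 919 and 10.6 FPKM in the wild type and at 319, 994 and 83.5 FPKM in the mutant. In wild-type log cells these genes lay close together, and in wild-type Q cells COX7 and COX13 stood well above all the others. Apart from COX5B, the remaining genes, COX5A, COX6, COX8, COX9 and COX12, lay between 13.2 and 29.0 FPKM there. COX9 was at 253, 1146 and 29.0 FPKM in the wild type and at 449, 1292 and 236 FPKM in the mutant, the largest mutant increase of the group in log cells after COX5B (0.82 and 1.36). COX6 was at 310.0, 925 and 20.2 FPKM in the wild type and at 248, 1134 and 73.5 FPKM in the mutant. COX8 was at 260.1, 629.9 and 15.4 FPKM in the wild type and at 251, 795 and 109.6 FPKM in the mutant, with the smallest rise of the 8 from log to DS cells in the wild type (1.27).

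The ATP synthase rose less in DS cells than the complexes before it. The median change was 1.44 for the F1 genes with the inhibitor and 1.18 for the stalk and membrane part in the wild type, and 1.51 and 1.12 in the mutant. Of the 5 members of the 40 that were neither higher nor lower in wild-type DS cells, ATP1, ATP16, ATP17 and ATP20 are ATP synthase genes, with changes of 0.95 to 0.99 just under the threshold, and the other is NDE1 (-0.27). ATP2, the catalytic beta subunit, was at 539, 1761 and 2.79 FPKM in wild-type log, DS and Q cells and at 721, 2587 and 97.6 FPKM in the mutant. It was the highest of the 40 genes in DS cells of both genotypes and among the lowest in wild-type Q cells. ATP1, the alpha subunit, was at 593, 1176 and 6.88 FPKM in the wild type and at 531, 1614 and 108 FPKM in the mutant. ATP3, the gamma subunit of the rotor, was at 249, 565 and 10.6 FPKM in the wild type and at 228, 609 and 70.5 FPKM in the mutant. ATP15 and ATP16, the epsilon and delta subunits of the rotor, were at 12.3 and 11.6 FPKM in wild-type Q cells. In F1, alpha and beta subunits outnumber the single rotor subunits, and their RNAs were the higher ones in log and DS cells of both genotypes but the lower ones in wild-type Q cells.

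In the stalk and membrane part, ATP5 (the subunit that confers oligomycin sensitivity) was at 320.5, 679 and 2.31 FPKM in wild-type log, DS and Q cells and at 328, 922 and 77.3 FPKM in the mutant. ATP14, subunit h, was at 186, 459.8 and 2.51 FPKM in the wild type and at 253, 551 and 86.6 FPKM in the mutant. ATP20, subunit g, which takes part in dimer formation, was at 182, 360.3 and 2.02 FPKM in the wild type and at 79.2, 348 and 53.0 FPKM in the mutant. These 3 genes were the lowest of the group in wild-type Q cells, and ATP20 was the lowest in every condition. ATP20 was also the 1 member of the 40 that was at least 2-fold lower in the mutant in log cells (-1.19), whereas in Q cells it was higher in the mutant (4.16), as were 94.5% of all genes; with centred columns the latter value was 0.91, under the 2-fold threshold. ATP4 (subunit b), ATP7 (subunit d), ATP17 (subunit f) and ATP18 lay between 240.4 and 372 FPKM in wild-type log cells, between 565 and 830.0 FPKM in DS cells and between 8.11 and 12.4 FPKM in Q cells. In mutant Q cells they lay between 65.0 and 161 FPKM.

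The ATPase inhibitors stood apart from the enzyme in Q cells. INH1 codes for a small protein that blocks ATP hydrolysis by F1, and STF1, outside the 40, for a related one. INH1 was at 161, 768 and 51.5 FPKM in wild-type log, DS and Q cells and at 282, 667 and 121 FPKM in the mutant. STF1 was at 31.6, 629 and 40.2 FPKM in the wild type and at 93.6, 504 and 155 FPKM in the mutant. Both were below ATP2 in log and DS cells and above it in Q cells of both genotypes. The ratio of INH1 to ATP2, chosen after the values were seen, was 0.299, 0.436 and 18.4 in the 3 states of the wild type. In the mutant it was 0.392, 0.258 and 1.24. The ratio of STF1 to ATP2 was 14.4 in wild-type Q cells and 1.59 in mutant Q cells.

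Deletion of RPD3 moved few of these genes in growing cells. In log cells 2 of the 40 were at least 2-fold higher in the mutant, against 10.2% of all genes, and 1 was lower, against 3.38%. The higher ones were NDE2 (2.60) and COX5B (1.36), the lesser members of their pairs, and the lower one was ATP20. With centred columns 1 was higher and 1 lower, against 3.61% and 4.69% of all genes, and the median of the 40, 0.32 on the scale per cell against 0.25 for all genes, turned to -0.066. The summed FPKM of the 40 was 1.17 times that of the wild type, and that of all genes 1.05 times.

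In DS cells 1 of the 40, CYC1, was higher in the mutant and none was lower, while 31.3% of all genes were higher and 3.61% lower. The median change was 0.27 for the 40 and 0.64 for all genes, and 38 of the 40 lay below the latter; with centred columns the median of the 40 turned to -0.47, with none higher and 1 lower, against 10% and 8.6% of all genes. The exceptions were CYC1 and COX5B (0.73). NDE2 had the lowest value (-0.65). As a share of the summed FPKM of their column the 40 genes held 5.14% in the mutant and 5.52% in the wild type. Without ribosomal protein genes in the sum the share was 5.77% in both.

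With 1 FPKM added before the log, nearly all genes of the table were higher in mutant than wild-type Q cells on the scale per cell. The respiratory genes were then no different in number. Of the 40, 37 were higher, against 94.5% of all genes, and none was lower, against 0.343%. The median was 2.75 for the 40 and 2.81 for all genes. With centred columns that of the 40 turned to -0.87, with 5 higher and 17 lower, against 21.3% and 25.8% of all genes. With 10 FPKM added 36 of the 40 were higher, against 66.5% of all genes, with medians of 2.16 and 1.25. With 0.1 added 37 were higher, against 96.4% of all genes, with medians of 2.89 and 3.57. With 1 FPKM added, the 3 that were not called were SDH2 (0.09), COX7 (0.37) and NDE2 (0.86). These were the 3 members with the highest change from log to Q cells in the wild type. Both differences contain the wild-type Q value, with opposite signs, so they are not independent. The largest differences were those of SDH3 (5.39), ATP2 (4.70), ATP14 (4.64), SDH4 (4.56) and ATP5 (4.56). The levels within each group lay closer together in mutant than in wild-type Q cells. The fold between the highest and the lowest gene was 3.04 against 75.3 in complex II, 5.80 against 7.60 in complex III, 9.79 against 126 in complex IV, 1.71 against 18.4 in F1 with INH1, and 3.04 against 6.13 in the stalk and membrane part. Such folds within a column do not depend on the scale per cell, but several wild-type Q levels were near 1 FPKM and the read depth behind them is unknown.

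The partners of these genes rose less than they did in DS cells. Of 24 assembly factors of complex IV 5 were higher and 2 lower in wild-type DS than log cells (median 0.58), against 9.91% and 44.2% of all genes. For 19 assembly factors of complexes II and III and the ATP synthase the counts were 6 and 1 (median 0.06), and for 10 genes of ubiquinone synthesis 2 and 1 (median -0.01). None of 8 heme synthesis genes was higher and 2 were lower (median -0.65). All these medians lay above that of all genes, -0.85, and below the 1.66 of the 40 genes, and with centred columns those of ubiquinone and heme synthesis turned to 0.83 and 0.25. Of 5 ADP/ATP and phosphate carriers 2 were higher and 1 lower (median 0.80). With centred columns 16 complex IV factors, 9 of the other assembly factors, 5 ubiquinone genes, no heme gene and 4 carriers were higher, against 19.1% of all genes, with medians of 1.45, 0.92, 0.83, 0.25 and 1.71. Centred, 0, 0, 0, 1 and 1 of them were lower, against 21.3% of all genes. In the mutant, where 7.54% of all genes were higher and 28.6% lower, the counts in DS against log cells were 6 higher and none lower for complex IV factors (median 0.61), 5 and 0 for the other assembly factors (0.66), 0 and 0 for ubiquinone synthesis (-0.13), 0 and 0 for heme synthesis (-0.21), and 3 and 1 for the carriers (1.35); centred, the medians of ubiquinone and heme synthesis turned to 0.41 and 0.33, and 13, 11, 1, 0 and 4 genes were higher, against 12.9% of all genes. Among the assembly factors CBP4 of complex III had the largest rise in the wild type (2.87), and OXA1, the insertase for membrane subunits, was lower (-1.35, and -0.47 with centred columns).

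From DS to Q cells of the wild type every gene of the complex IV, complex II, III and ATP synthase, ubiquinone and heme lists was lower, as were 94.6% of all genes, with medians of -3.77, -3.80, -3.94 and -4.13, which lie between the -2.90 of all genes and the -5.75 of the 40. Of the carriers 4 of 5 were lower (median -6.17). In the mutant 21 of 24, 16 of 19, 7 of 10 and 6 of 8 were lower in Q than DS cells, against 40.6% of all genes, with medians of -1.95, -1.92, -1.13 and -1.47. Apart from the carriers, the medians of the partners thus fell less than that of the 40 genes in both genotypes, with 1 FPKM added. In the wild type this order may depend on the FPKM added, since some partners began low and ended below 1 FPKM. COQ1 went from 32.9 FPKM in DS to 0.643 FPKM in Q cells, and COQ8 from 18.7 to 0.217 FPKM. Other amounts were not tried for these lists. Between mutant and wild-type Q cells every gene of these 4 lists and all 5 carriers were higher in the mutant on the scale per cell, near the 94.5% of all genes, with medians of 2.77, 2.52, 3.17, 3.14 and 2.51. With centred columns 1, 0, 3, 3 and 1 were higher and 9, 7, 2, 1 and 2 lower, against 21.3% and 25.8% of all genes, with medians of -0.49, -0.57, 0.63, 0.69 and -0.88. From log to Q cells the wild-type medians on the scale per cell were -3.27, -3.93, -4.02, -4.73 and -4.56, and with centred columns those of the complex IV and the other assembly factors turned to 1.03 and 0.26. Those of ubiquinone synthesis, heme synthesis and the carriers stayed below 0. The mutant medians from log to Q cells were -1.58, -1.50, -1.40, -1.65 and -2.84. In mutant against wild-type log cells they were 0.41, 0.37, 0.62, 0.17 and 0.17, of which the second, the fourth and the fifth turned to between -0.22 and -0.01 with centred columns. In DS cells they were 0.70, 0.60, 0.31, 0.83 and 0.72, where the medians of the complex IV factors, the other assembly factors, ubiquinone synthesis and the carriers turned to between -0.39 and -0.02 with centred columns.

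By their median, 10 further genes outside the 40, among them subunits and paralogs, rose more than the 40 in DS cells of both genotypes. ATP19 (0.71 in the wild type and 0.35 in the mutant) and SHH3 in the mutant (-0.12) stayed within 2-fold. In wild-type DS against log cells 9 of these 10 were higher, against 9.91% of all genes, and none lower, against 44.2%, with a median of 3.50, led by YJL045W (6.32) and CYB2, the lactate dehydrogenase that feeds cytochrome c (5.03). In wild-type Q against log cells 4 were higher and 5 lower on the scale per cell, against 1.84% and 93.2% of all genes (median -0.84, turning to 3.90 with centred columns). All 10 were lower in wild-type Q than DS cells, near the 94.6% of all genes (median -4.20, and -0.35 with centred columns, where 3 were higher and 4 lower). In the mutant 8 were higher and none lower in DS against log cells, against 7.54% and 28.6% of all genes (median 2.12). In mutant against wild-type DS cells none was higher and 4 were lower, against 31.3% and 3.61% of all genes (median -0.52). In mutant against wild-type Q cells 8 were higher, against 94.5% of all genes (median 2.11, turning to -1.59 with centred columns, where 1 was higher and 7 lower). ATP19 and TIM11, subunits k and e of the ATP synthase, were at 392, 643 and 1.89 and at 212, 630.3 and 13.9 FPKM in wild-type log, DS and Q cells.

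The 7 subunits encoded in mitochondrial DNA, which assemble with these proteins, rose in DS cells too, and their median fell less than that of the nuclear genes from DS to Q cells. In wild-type DS against log cells 4 of the 7 were higher and none lower, against 9.91% and 44.2% of all genes (median 1.30). In wild-type Q against DS cells 3 were lower and 1 higher, against 94.6% and 0.171% of all genes, with a median of -0.89 that turned to 2.99 with centred columns; the lowest was OLI1, subunit c of the ATP synthase (-2.56). In wild-type Q against log cells 2 were higher and 1 lower, against 1.84% and 93.2% of all genes (median 0.35). COX2 was at 1209, 4185 and 1538 FPKM in wild-type log, DS and Q cells and at 1487, 4715 and 4119 FPKM in the mutant. COB, cytochrome b of complex III, was at 888, 1667 and 899.5 FPKM in the wild type and at 963, 2149.8 and 1588 FPKM in the mutant. Both were about as high in wild-type Q as in log cells, where the nuclear subunits of the same complexes were lower on the scale per cell. Between mutant and wild-type Q cells 2 of the 7 were higher and 1 lower, against 94.5% and 0.343% of all genes (median 0.82, turning to -2.96 with centred columns). ATP8 was the 1 gene higher in wild-type Q than DS cells (1.94) and the 1 lower in mutant than wild-type Q cells (-2.74). It was also among the 2 that were higher in wild-type Q than log cells (2.84). Its levels were low, at 1.37, 3.41 and 16.0 FPKM in wild-type log, DS and Q cells. In mutant Q cells it was at 1.53 FPKM, and it had no value in mutant log cells.

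Among 14 regulators none was higher and 4 were lower in wild-type DS than log cells, against 9.91% and 44.2% of all genes (median -0.80, turning to 0.08 with centred columns). In the mutant 1 of 13 was higher and 4 lower, against 7.54% and 28.6% (median -0.52, turning to 0.02). The 1 was HAP4, the regulated subunit of the Hap complex. HAP4 was at 135, 148 and 2.07 FPKM in wild-type log, DS and Q cells and at 102, 286 and 25.9 FPKM in the mutant. On the scale per cell it differed little between wild-type log and DS cells (0.13, and 1.03 with centred columns) and rose in the mutant (1.48). HAP1, the heme-dependent activator, was at 57.3, 31.7 and 4.45 FPKM in the wild type and at 47.6, 41.0 and 20.8 FPKM in the mutant. ROX1, the repressor of hypoxic genes, was at 33.9, 20.5 and 0.583 FPKM in the wild type and at 38.4, 30.0 and 19.1 FPKM in the mutant. All 14 regulators were lower in wild-type Q than log cells on the scale per cell, near the 93.2% of all genes (median -3.82, turning to 0.19 with centred columns). All were lower there than in DS cells as well, near the 94.6% of all genes (median -3.28, turning to 0.09). In mutant against wild-type cells the medians were 0.29 in log, 0.52 in DS and 3.09 in Q cells. With centred columns they were -0.10, -0.20 and 0.02. UME6 was the 1 regulator higher in the mutant in log (1.57) and DS cells (1.97), against 10.2% and 31.3% of all genes. In Q cells 13 of the 14 were higher, against 94.5% of all genes. RPD3, the deleted gene, was the 1 gene lower in DS and Q cells, against 3.61% and 0.343% of all genes.

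The profiles of 8 genes outside the 40 and the lists were nearest to the members' median profile over the 6 conditions, by the root mean square distance of log2(FPKM + 1) after the mean of each gene was taken off, among 6149 candidates. YNK1, nucleoside diphosphate kinase, was nearest (0.192), at 172, 568 and 9.36 FPKM in wild-type log, DS and Q cells and 246, 729 and 57.7 FPKM in the mutant. It was followed by GSY2, glycogen synthase (0.236), MDH1, the mitochondrial malate dehydrogenase (0.246), HMX1, heme oxygenase (0.258), DLD1, D-lactate dehydrogenase (0.268), AIM17 (0.270), YLR294C (0.300) and AIM5 (0.334). The systematic name of YLR294C is next to that of ATP14, YLR295C, and whether their reads can be told apart was not tested. Of the 40 genes themselves 12 were nearer than the eighth of these. COX5A was the nearest member (0.149) and NDE2 the farthest (2.53).

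The 40 genes lie on 14 chromosomes, and none has another of them as its neighbour in the reference. Their coding lengths ran from 180 to 1923 bases with a median of 459, and 3 of them, QCR9, QCR10 and COX5B, have an intron in the coding part. CCAAT was found on either strand in the 500 bases before the start codon of 36 of the 40 genes (90%) and of 62.4% of all 6000 genes searched. As an exact string it was absent from this window in NDE2, CYT1, CYC1 and COX4. Sites that depart from the searched strings, of CCAAT or of the other motifs, would not be found. AGGGG was found for 20 of the 40 (50%) against 34.1%, GGCGGC for 10 (25%) against 9.57%, ATTGTT for 23 (57.5%) against 48.9% and the Hap1 site for 1, QCR6 (2.5%), against 0.35%. By group, CCAAT was found for all genes of complex II and of the ATP synthase, and AGGGG for 5 of 6 genes of F1 with INH1 but 1 of 7 of the stalk and membrane part. No factor's binding was measured here.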

How the data were processed

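Strand-specific RNA-seq of rRNA-depleted RNA with ERCC spike-ins gave 14 libraries from 2 isolates per condition, with 4 libraries in wild-type log (0.2 and 1 spike equivalents), per the labels' protocols. The submitters' processing notes name CASAVA, TopHat2, SAMtools, Cuffdiff and Cufflinks 2.2.1; their settings, genome build and annotation are unknown here. The authors deposited FPKM as log2 values scaled to RNA per cell, in 1 column per condition, and no source says how isolates or spike amounts were merged. The base was read from the values: in wild-type log cells FPKM times kilobases came to 1268590 with base 2 and to 30897800 with base e. Depth is unknown, so no interval could be given.

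Of 6602 named rows, 4 that repeat 2 names were left out. At the table's end 108 mutant DS values repeat the opening run of mutant Q and were dropped, a choice made after the data were seen; no member is among them. Values were converted to linear FPKM, genes reaching 1 FPKM in any condition were kept (6524, all 40 members), and changes were differences of log2(FPKM + 1) over 9 comparisons. All 40 genes are named. The members and lists were chosen with earlier results of these data known. Alternatives were pseudocounts of 0.1 and 10, no filter, genes with all 6 values, and columns centred on their median gene. The scripts were tested on simulated data. Sequence, lengths and neighbours come from RefSeq R64, which matched 5924 names.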

Additional observations from a re-analysis of the deposited data

Results flagged for a closer look

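ATP20, subunit g of the ATP synthase, differed between the harvests in the direction of its genotype difference on the scale per cell. It was lower in the mutant in log cells (-1.19 on the log2 scale, 182 FPKM in the wild type and 79.2 FPKM in the mutant) and higher in the mutant in Q cells (4.16, 2.02 and 53.0 FPKM). In Q cells 94.5% of all genes were higher in the mutant, and with centred columns the ATP20 values were -1.56 in log and 0.91 in Q cells, so that the second was under 2-fold and the opposite call was lost. The difference between these 2 effects was not tested, since each condition has 1 value. Of 6395 genes with both comparisons, 151 (2.36%) were at least 2-fold changed in opposite directions between them. None of the other 39 genes was.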

How the results depend on the processing

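The median of the 40 genes turned with centred columns in wild-type Q against log cells (0.46, with 13 higher and 8 lower) and in mutant against wild-type Q cells (-0.87, with 5 higher and 17 lower). It also gave wild-type DS against log 2.56 with 0 lower, wild-type Q against DS -1.97 with 1 higher, mutant against wild-type log -0.066 with 1 higher, mutant against wild-type DS -0.47 with 0 higher and 1 lower, mutant Q against log -0.091 with 6 higher and 4 lower, and mutant Q against DS -2.35; the medians of mutant against wild-type log and DS cells, within 2-fold on either scale, thus changed sign too. Over the 9 comparisons the sign of 117 of 360 single changes turned, of which 59 were at least 2-fold on the scale per cell. The other 58 were within 2-fold there, 32 of them in mutant against wild-type DS cells, 12 in mutant against wild-type log cells and 9 in mutant Q against log cells. The 59, with their centred log2 changes, were in wild-type Q against log cells NDI1 0.38, SDH1 1.85, SDH4 0.53, QCR6 0.70, QCR7 1.18, QCR8 2.07, QCR9 1.34, QCR10 2.50, CYT1 0.35, RIP1 1.60, CYC7 3.12, COX4 0.19, COX5A 0.73, COX6 0.84, COX8 0.71, COX9 1.66, COX12 0.68, COX13 2.85, ATP3 0.24, ATP15 0.68, ATP16 0.40, ATP18 0.34 and INH1 3.13; in wild-type Q against DS cells NDE2 0.61, SDH2 0.36, CYC7 1.20, COX7 0.61 and COX13 0.29; in mutant against wild-type Q cells SDH1 -1.75, QCR6 -1.27, QCR7 -1.24, QCR8 -1.09, QCR9 -0.85, QCR10 -1.78, CYT1 -1.31, RIP1 -1.92, CYC7 -1.91, COX4 -0.80, COX5A -1.20, COX6 -1.90, COX8 -0.94, COX9 -0.76, COX12 -1.22, COX13 -2.24, ATP3 -1.04, ATP4 -0.016, ATP7 -0.26, ATP15 -0.93, ATP16 -0.75, ATP17 -0.89, ATP18 -0.077 and INH1 -2.54; and in mutant Q against log cells QCR7 0.17, QCR9 0.25, RIP1 0.11, COX8 0.20, ATP15 0.18, ATP18 0.075 and INH1 0.17. By construction centring takes off the shift of the median gene. A pseudocount of 10 gave medians of -3.36, -4.95 and 2.16 in wild-type Q against log, wild-type Q against DS and mutant against wild-type Q cells. A pseudocount of 1 on both genes gave log2 ratios of 3.74 for COX5A to COX5B and -2.46 for CYC1 to CYC7 in wild-type Q cells. Without ribosomal protein genes in the sum the share of the 40 was 1.15% in wild-type and 1.22% in mutant log cells. In Q cells it was 1.61% in the wild type and 1.43% in the mutant. Leaving out the filter, or keeping genes with all 6 values, could not alter the 360 single changes, because all 40 genes passed the filter and had all 6 values. No paired analysis was possible because the table has 1 pooled column per condition. For the same reason no isolate could be left out. Depth is unknown, and levels near or below 1 FPKM in wild-type Q cells, such as those of CYC1 and COX5B, have an unknown counting error.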

Other observations

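Genes known for their use at low oxygen did not move as one in the mutant. In log cells AAC3, the ADP/ATP carrier of this kind, was at 12.4 FPKM in the wild type and 54.0 FPKM in the mutant (2.04 on the log2 scale), and COX5B was higher as well (1.36, and 0.96 with centred columns). CYC7 differed by less than 2-fold (0.40), and HEM13, the heme synthesis enzyme that is raised when oxygen is short, was at 229 and 120.1 FPKM (-0.92). In DS cells AAC3 (2.21) and HEM13 (1.29, and 0.56 with centred columns) were higher in the mutant. COX5B (0.73, and 0.02 with centred columns) and CYC7 (0.05, and -0.68 with centred columns) differed by less than 2-fold. In wild-type DS against log cells AAC3 (-3.30), HEM13 (-2.84) and COX5B (-1.81) were all lower, and CYC7 was higher (1.06). These 4 genes were picked after their values were seen.

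The ADP/ATP carriers also changed order. PET9, the main carrier, was at 772, 1346 and 14.8 FPKM in wild-type log, DS and Q cells and at 869, 2219 and 74.5 FPKM in the mutant. AAC1, a minor one, was at 15.3, 116 and 19.96 FPKM in the wild type and at 24.3, 41.0 and 96.9 FPKM in the mutant. AAC1 was 0.0198 times as high as PET9 in wild-type log cells, 1.35 times in wild-type Q cells and 1.30 times in mutant Q cells.

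COX26, a small subunit linked to complex IV that is listed under its systematic name YDR119W-A, was at 72.4, 887 and 237 FPKM in the wild type and at 4.13, 428 and 591 FPKM in the mutant. It was lower in the mutant in log cells (-3.84) and DS cells (-1.05), where none of the 9 nuclear complex IV genes of the 40 was lower by 2-fold. In Q cells it was higher in the mutant on the scale per cell (1.31), by less than the median of all genes (2.81), and lower with centred columns (-2.46).

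The longer of the 40 genes fell somewhat further from DS to Q cells. The 20 with a coding length of 462 bases or more had a median change of -6.38 (wild type) and -3.50 (mutant), and the 20 of 456 bases or less had -5.36 and -2.77. Spearman's rho between coding length and change was -0.36 in the wild type and -0.40 in the mutant over the 40 genes, and 0.10 and 0.13 over 5802 and 5703 genes with a coding length; genes are not independent replicates, and the part of length in the differences within complexes was not tested.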
